A study of Mus musculus with 4 samples.

Results

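The cells described here are a group of mouse granulosa cells (GCs) that carried the RNA of Gatm, Itga6, Cdh12, Col18a1 and Pcsk6, a combination proposed to mark cumulus cells. A cell was a member if at least 4 of 8 genes (Gatm, Col18a1, Cdh12, Itga6, Pcsk6, Adamts17, Chst9 and Kcnq1) had a unique molecular identifier (UMI, 1 captured RNA molecule), if Inhba stayed under 10 UMIs per 10000, and if fewer than 2 of 5 cell-cycle genes and fewer than 2 of 5 genes of endothelial and stromal cells were found. This rule gave 2705 cells of the 47782 that passed the cell filter. They numbered 397 and 1578 in the libraries from Fosl2F/F mice and 384 and 346 in those labelled Fosl2cKO. Because several genes that define cumulus cells did not follow that name, the cells are called Gatm-Itga6 GCs.

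The study asked what the transcription factor Fosl2, a member of the AP-1 family, does in GCs of maturing follicles. Whole ovaries of 8-week-old female littermates were dissociated and sequenced with 10x Genomics 3′ chemistry. The study shows vaginal smears with features of estrus for both genotypes. Control mice were Fosl2F/F, with LoxP sites around exons 2 and 4 of both Fosl2 copies and no Cre. Fosl2cKO mice carried the same floxed copies and Cyp19a1-Cre, which acts in cells that have used the promoter of Cyp19a1, the aromatase gene. There were 2 libraries of each genotype, here called control and cKO-labelled libraries, the same as the group size given for the ovaries. That each library came from 1 mouse is not stated outright, so p-values measure the spread between libraries, which may be technical.

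In an antral follicle, the mural GCs line the wall and the cumulus GCs surround the oocyte and feed it through fine projections and gap junctions. The oocyte secretes GDF9 and BMP15, which act through BMP and TGF-beta receptors and keep the cumulus cells distinct: they hold anti-Müllerian hormone (Amh) high, raise glycolysis, cholesterol synthesis and amino acid transport on behalf of the oocyte, and hold down the LH receptor (Lhcgr). Mural cells make estradiol through Cyp19a1 and secrete the C-type natriuretic peptide (Nppc) that keeps the oocyte in meiotic arrest.

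The libraries did not have the same depth. A member held a median of 11905 and 4372.5 UMIs in the control libraries and 12728.5 and 13136.5 UMIs in the cKO-labelled ones. The 2nd control library was thus the shallowest per cell and held the most members. Pairs of libraries shared 12 to 49 cell barcodes after the filter. The 4 hemoglobin genes summed to 363 counts per 1000000 UMIs (CPM) in members of the 1st control library against 0.771 to 7.41 CPM in the other 3. The Fosl2 counts did not follow the labels in these cells. It had 116 and 194 CPM in the control libraries and 161 and 160 CPM in the cKO-labelled libraries, so the groups overlapped (log2 change -0.02 ± 0.24 (SE), edgeR adjusted p = 1.0). Mural-like cells overlapped as well, with 239 and 223 CPM against 336 and 143 CPM. Fosl2 lies on chromosome 5 of GRCm38 (start 32135801, end 32157842, plus strand), and whether the 3′ end counted here lies between the LoxP sites around exons 2 and 4 is not given in the sources used here. The counts therefore do not test whether the protein was lost. By immunoblot, the study reports that the protein was depleted in GCs of Fosl2cKO mice. Cyp19a1, whose promoter drives the Cre, had 4.71 and 6.24 CPM in Gatm-Itga6 GCs of the control libraries and 3.39 and 3.27 CPM in the cKO-labelled ones, against a mean of 226 CPM in mural-like cells.

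The genes of the rule were counted first, as a description, since they chose the cells. Gatm, the first enzyme of creatine synthesis (chromosome 2, 122594467 to 122611303, minus strand), had 561, 468, 434 and 515 CPM in the order control 1 and 2, then cKO-labelled 1 and 2. Itga6, an integrin subunit that binds laminin (chromosome 2, 71745616 to 71858416, plus strand), had 758, 859, 881 and 817 CPM. Both lay above mural-like cells in every library, at log2 differences of 5.40 to 6.39 for Gatm and 4.11 to 4.51 for Itga6 on the scale of log2(CPM + 1). Mural-like cells were limited to fewer than 4 of the 8 markers, so the rules helped to set this contrast. The cadherin Cdh12 had 188 to 255 CPM, the proprotein convertase Pcsk6 had 284 to 386 CPM and Col18a1, a basement membrane collagen, had 200 to 248 CPM. Adamts17, a secreted metalloprotease, varied most between libraries, from 50.2 to 201 CPM. Of the genes the rule held down, Inhba (an activin and inhibin subunit) had 66.6 and 42.9 CPM in the control libraries and 19.7 and 19.8 CPM in the cKO-labelled ones, and macrophage-like cells showed the same order with 75.0 and 27.8 against 13.7 and 15 CPM. Atretic-like cells had the opposite order, 86.7 and 69.2 against 87.6 and 101 CPM, and mural-like and growing-follicle cells overlapped. Gatm was also counted in macrophage-like cells, at a mean of 175 CPM.

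Cells near the limits of the rule were counted once. With 3 of the 8 markers, 113 and 654 cells of the control libraries and 147 and 151 cells of the cKO-labelled ones fell just outside. With exactly 4 markers, 93 and 509 and then 72 and 68 cells fell just inside, so that this edge held more of the members of the shallow library than of the others. Gatm stood at 110 and 123 and then 32.1 and 44.1 CPM in the cells just outside, and at 192 and 275 and then 97.4 and 104 CPM in those just inside. The limit on Inhba left out 21 and 26 and then 1 and 0 cells.

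Outside the rule, the Gatm-Itga6 GCs were led by genes of varied function. The 20 leading genes were those whose lowest ratio over the libraries, against the highest of mural-like, growing-follicle and atretic-like cells, was largest. Pla2r1, a phospholipase A2 receptor, was the first, with 85.3, 122, 124 and 92.1 CPM against a mean of 9.14 CPM in mural-like, 13.0 in growing-follicle and 10.9 in atretic-like cells. Calb1, a calcium-binding protein, had 64.9, 60.2, 59.6 and 45.6 CPM against a mean of 1.26 CPM in mural-like cells. Hs6st2, which adds sulfate to heparan chains, ran from 174 to 369 CPM against a mural-like mean of 17.1 CPM. The inhibitor of apoptosis Bcl2 had 165, 197, 167 and 222 CPM against 28.4 CPM. The list went on with Arap2, E330013P04Rik, Dipk2a, Cntnap5a, Shtn1, Frmd4b, Igf2bp2, Ano1, Fndc5, Disp1, Grik3, Emx2, Alcam, Mical2, Wt1os and Nell1. Frmd4b and Alcam had more in macrophage-like cells, with means of 371 and 590 CPM. Wt1os is antisense to the region beside Wt1, a transcription factor of the early gonad. Wt1 itself had 499, 673, 530 and 713 CPM against a mural-like mean of 29.4 CPM and a growing-follicle mean of 190 CPM.

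**Figure D1:**
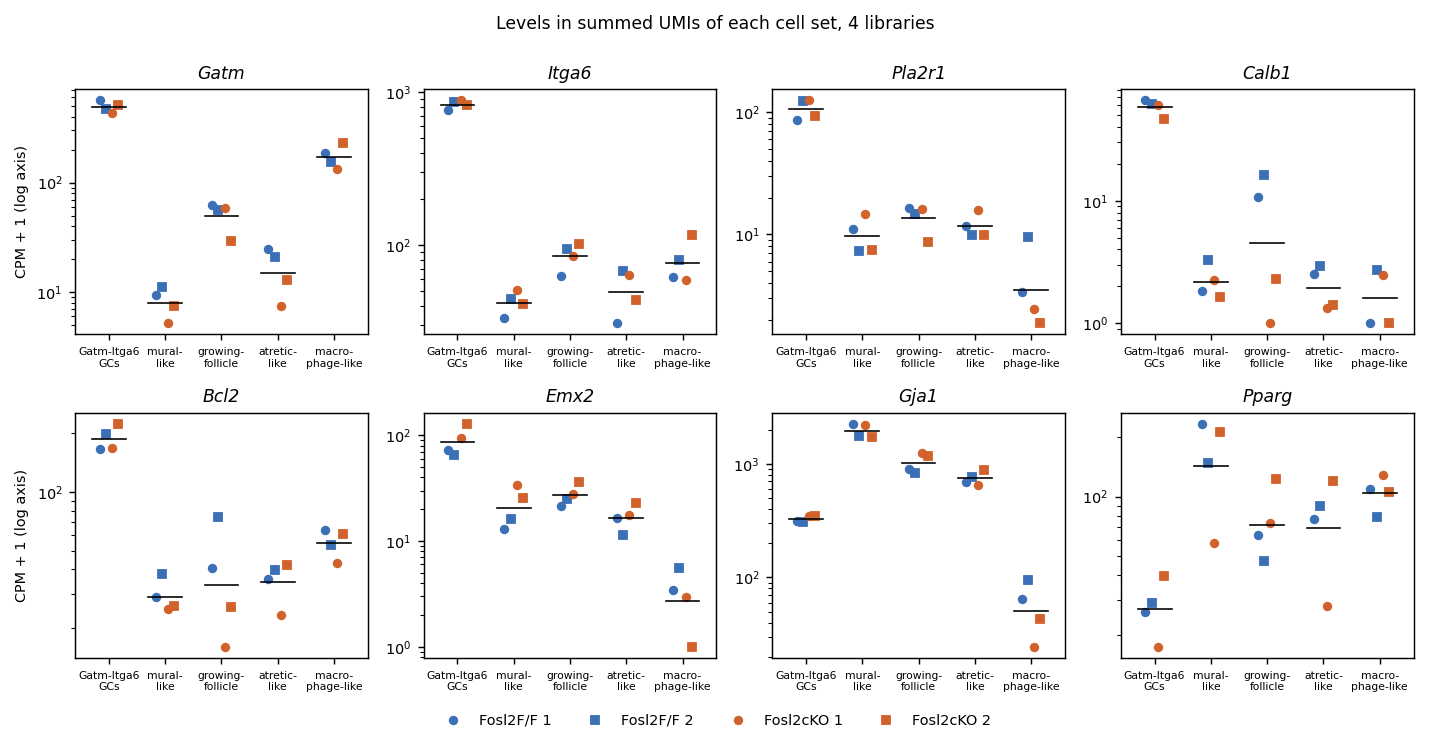
CPM + 1 on a log axis for 8 genes in the summed UMIs of 5 cell sets, with 1 point per library (blue Fosl2F/F controls, orange cKO-labelled) and a bar at the geometric mean. Gatm, Itga6 (both used by the rule), Pla2r1, Calb1, Bcl2 and Emx2 are higher in Gatm-Itga6 GCs than in the other GC sets in all 4 libraries, and Gja1 and Pparg are lower.

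The genes lowest in these cells included the gap junction protein connexin 43. Gja1, which encodes it, had 313, 305, 345 and 347 CPM, against a mean of 1974 CPM in mural-like, 1036 in growing-follicle and 747 in atretic-like cells. Nap1l5, which encodes a nucleosome assembly protein-like factor, had 22.4 to 49.9 CPM against a mural-like mean of 1178 CPM. Csrp2, a LIM domain protein, had 44.9 to 98 CPM against a mural-like mean of 1125 CPM. The neutrophil chemokines Cxcl1 and Cxcl2 had 67.2 to 85.3 and 16.5 to 41.4 CPM against mural-like means of 412 and 246 CPM. The nuclear receptor Pparg had 16.4 to 38.6 CPM against 162 CPM. Slc38a5, Rcn3, Mpped2 and Smc4 completed the 10 lowest.

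The label of cumulus cells was checked against genes that define that fate, and the result was mixed. Amh had 258, 156, 227 and 185 CPM, above the mural-like mean of 19.8 CPM in every library and below the growing-follicle mean of 571 CPM, a set chosen by Amh. The growth factor Kitl had 332, 619, 615 and 444 CPM against a mural-like mean of 326 CPM. Nppc was low, at 20.2 to 25.5 CPM against 256 CPM, as was Cyp19a1. Slc38a3, the amino acid transporter that the oocyte induces in cumulus cells, had 22.7, 6.43, 3.09 and 17.0 CPM, above mural-like cells in every library (4.14, 1.73, 2.52 and 8.32 CPM), against means of 42.6 CPM in growing-follicle and 33.4 CPM in atretic-like cells. Npr2, the receptor of the natriuretic peptide, had 16.5 to 24.1 CPM, a range inside that of mural-like cells (10.1 to 32.6 CPM). Thinned to 2000 UMIs a cell, Slc38a3 had a UMI in 0.521 to 3.05% of members (mean 1.76%), against 0.174 to 1.07% of mural-like cells (mean 0.703%) and at most 0.529% of macrophage-like cells. The expansion genes Has2 (1 UMI over all members), Ptgs2 (0.168 to 3.41 CPM) and Ptx3 (0.780 to 1.25 CPM) were near 0, and Tnfaip6 had 7.23 to 11.8 CPM against a mean of 23.8 CPM in macrophage-like cells. At 2000 UMIs a cell, Has2, Ptgs2 and Ptx3 had a UMI in means of 0%, 0.185% and 0.0976% of members. The means in mural-like cells were 0.385%, 0.127% and 0%, so these 3 genes do not tell the sets apart and do not bear on the label.

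**Figure D2:**
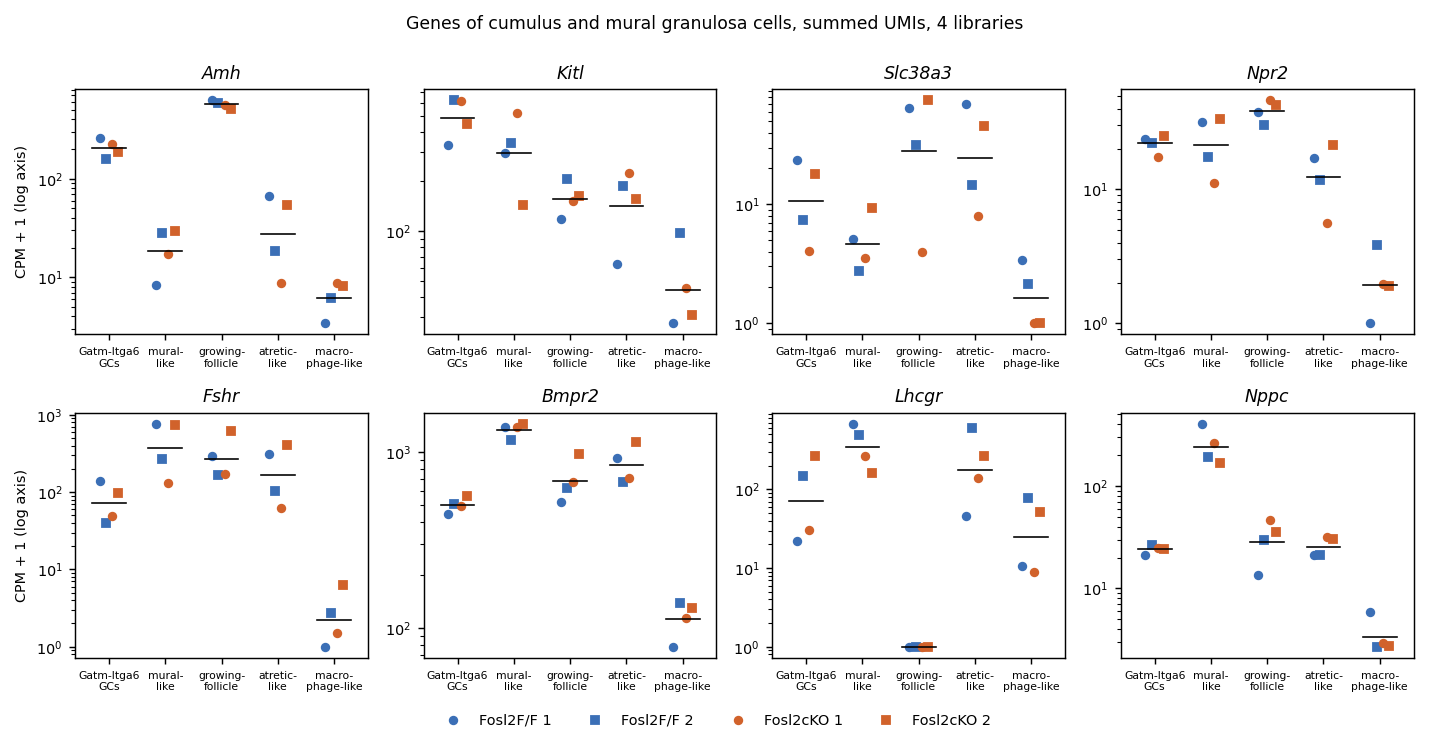
CPM + 1 on a log axis for 8 genes of cumulus and mural GCs in 5 cell sets, 1 point per library and a bar at the geometric mean. Amh lies between mural-like and growing-follicle cells, Slc38a3 and Npr2 do not lead in Gatm-Itga6 GCs, and Nppc and Fshr are below mural-like cells. Amh and Lhcgr helped to choose the growing-follicle and mural-like sets.

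Gene lists were then compared with mural-like cells, where a gene counted as higher or lower if it differed over 2-fold in all 4 libraries. Over all 11282 genes compared, 5.78% were higher and 2.0% lower, with a median log2 difference of 0.05. Since the rule chose the cells from the same counts, no test was made. Basement membrane and matrix genes held 7 of 17 higher and 0 lower, with a list median of 1.33. Col4a1, the main collagen IV chain, had 69.3 to 189 CPM against a mural-like mean of 17.6 CPM, and Lama1, a laminin chain, had 660 to 934 CPM against 320 CPM. The others were Col4a2, Col4a3, Col4a4, Nid1 and Col18a1, the last of which the rule used. Over sub-clusters 1 to 6 Nid1 no longer passed 2-fold in every library, with a lowest log2 difference of 0.73. Of 17 sulfation genes 4 were higher, Chst9 (used by the rule), Hs6st2, Chst15 and Xylt1, and 1 was lower, Ext1. Transcription factors of GCs had 4 of 17 higher, namely Wt1, Emx2, Lhx9 and Runx1, while Foxo1, which acts in growing and stressed GCs, was lower at 273 to 376 CPM against 1078 CPM. Over sub-clusters 1 to 6 Lhx9 ranged from a log2 difference of -0.15 to 2.12 and so was not higher in every library.

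Among metabolic genes, the lists of glycolysis and cholesterol synthesis leaned lower, though most of their genes did not differ over 2-fold in every library. In glycolysis, 8 of 20 were lower and 1 was higher, with a list median of -1.02. Gapdh had 402 to 548 CPM against a mural-like mean of 1500 CPM, Ldha had 120 to 168 CPM against 399 CPM and Eno1 had 52.5 to 73.2 CPM against 294 CPM. Ldhb, which encodes the other lactate dehydrogenase subunit, was the exception with 1033, 580, 569 and 600 CPM against 240 CPM. In cholesterol synthesis, 7 of 24 were lower and 0 were higher, with a list median of -1.18. Fdps had 60.1 to 114 CPM against 295 CPM. Of the 30 mitochondrial respiration genes none differed over 2-fold in all 4 libraries, and the list median was -0.49. Amino acid transport had 1 of 12 higher, Slc7a5, and 0 lower, with a list median of -0.03. This list did not hold Slc38a5, which is of the same family as Slc38a3 and is named above among the genes lowest in these cells. Creatine and one-carbon genes had 1 of 11 higher, the rule gene Gatm, and 2 lower, Mthfd2 and Cbs, with a list median of 0.34.

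Among the genes that receive oocyte signals, Smad3, a mediator of TGF-beta family receptors, had 228, 332, 335 and 306 CPM against a mural-like mean of 101 CPM. Bmpr2, the type II receptor for both GDF9 and BMP15, had 442, 508, 490 and 560 CPM against 1345 CPM, and its partner Bmpr1b had 681 to 942 CPM against 1657 CPM. Over that list of 22 genes, 2 were higher (Smad3 and the rule gene Pcsk6) and 1 was lower, where 5.78% and 2.0% of all genes compared were. With Pcsk6 left aside, this list does not stand out from those shares, nor do the lists with 1 higher gene. Inhibin and activin genes had 4 of 7 lower, of which Inhba was held down by the rule, with Fst and Inhbb among the others and Inha at 910 to 1447 CPM against 8513 CPM and Inhbb at 41.2 to 59.2 CPM against 938 CPM. Mural-like cells were chosen with Inhba at or over 10 UMIs per 10000, so the contrast in Inhba was set from both sides. How far that choice bears on the other inhibin genes was not tested. The follicle-stimulating hormone receptor gene Fshr had 139, 38.8, 48.0 and 95.6 CPM against 472 CPM, and the AMH receptor gene Amhr2 had 273, 210, 296 and 194 CPM against 96.7 CPM. Actin and projection genes had 1 of 11 higher, Myo10, an unconventional myosin of filopodia, at 783 to 956 CPM against 245 CPM. In meiotic arrest 3 of 9 were lower, Nppc, Gja1 and Impdh1, and 0 were higher.

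Clustering the members by variable genes other than those of the rule gave 10 sub-clusters. Sub-clusters 1 to 6 held 2355 cells, while sub-clusters 7 to 10, with 350 cells or 12.9% of members, were led by genes of other cells. The latter were led by Ccl5, Ccl4 and the leukocyte gene Ptprc (sub-cluster 7), by Ptgfr, Sfrp4 and Runx2 (8), by Grm7, Abcb1b and the theca gene Cyp17a1 (9), and by Nrg1, Upk3b, Krt19 and Epcam, genes of epithelium (10). They made up 5.29% and 16.2% of members in the control libraries and 7.55% and 12.7% in the cKO-labelled ones. Cells with the highest Scrublet scores, which mark likely doublets, were 38.1% and 77.0% and then 27.6% and 34.1% of sub-clusters 7 to 10, against 0.662 to 3.63% of sub-clusters 1 to 6. The sub-clusters were not alike in this: sub-cluster 10 had 0% in all but the 2nd control library (of 3, 8 and 5 cells) and 65.4% of 26 cells there, and sub-cluster 6 had 10.3% in the 2nd control library and 11.1% in the 1st cKO-labelled library. The number of cells marked by score was set at 0.8% of a library per 1000 of its cells. A larger share was thus marked in the 2nd control library, where 19588 of 24320 cells were left without them. In the other libraries 8163 of 8780, 6763 of 7175 and 7056 of 7507 cells were left. Most of the Lhcgr UMIs lay in sub-clusters 8 and 9 (2529 and 592 UMIs, against 17 to 97 UMIs in each of sub-clusters 1 to 6). Lhcgr had 21.4, 147, 29.2 and 263 CPM over all members and 11.4, 30.7, 4.66 and 9.05 CPM over sub-clusters 1 to 6. Sums of other lists were compared in the same way. The 8 macrophage markers summed to 38.2 to 110 CPM over all members and to 19.0 to 42.3 CPM without sub-clusters 7 to 10, and the 6 epithelial markers to 208 to 465 CPM and 101 to 166 CPM. The 6 luteal markers summed to 3258 and 4231 CPM in the control libraries and 2431 and 3341 CPM in the cKO-labelled ones over all members, and over sub-clusters 1 to 6 to 2679 and 2732 against 2129 and 2430 CPM, where the groups did not overlap. The 14 oocyte markers summed to 23.4 and 109 CPM and then 10.5 and 29.0 CPM over all members, and to 19.6 and 120 CPM and then 5.74 and 26.8 CPM over sub-clusters 1 to 6. The part of these sums in the differences between genotypes was not tested.

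Sub-clusters 1 to 6 differed among themselves in the genes of the rule as well as in their leading genes. Sub-cluster 1 (453 cells) was led by Csmd1, Pde7b, Kcnq5 and Foxp2, and sub-cluster 2 (320 cells) by Tmem266, Sema3e and Epb41l1. In sub-cluster 1, Pid1 and Gpc6, which helped to choose the atretic-like cells, ranked 7 and 8. They were not above the other members in every library (lowest log2 ratios -0.11 and -0.16). Sub-cluster 3 (632 cells) was the largest and had Ifitm1 and Cntn4 among its leading genes, with Amh at 218 to 356 CPM. Sub-cluster 4 (172 cells) was led by the interferon-inducible genes Ifi204, Ifi202b, Mndal and Ifi203, and had Igf2bp2 at 257 to 450 CPM. Of the 6 it had the lowest Amh in every library (43.1 to 98.8 CPM) and the highest Itga6 (1803 to 2608 CPM), while its Gatm had the highest mean (1506 CPM) but lay below sub-cluster 5 in the 2nd control library, at 1064 against 1070 CPM. Sub-cluster 5 (486 cells) was led by Tmem215, Krt79 and Calb1, with Gatm at 985 to 1407 CPM. Sub-cluster 6 (292 cells) was led by the replication genes Pclaf, Mcm3 and Mcm2 with the activin antagonist Fst, although the rule had limited mitotic genes, and had the highest mean Amh of the 6 at 398 CPM. As shares of members the sub-clusters varied between libraries of the same genotype, with sub-cluster 2 at 25.5% and 10.4% in the cKO-labelled libraries and sub-cluster 3 at 32.5% and 22.9% in the control libraries. In sub-cluster 3 the cKO-labelled libraries, at 18.8% and 19.9%, both lay below the controls. In sub-cluster 6, at 11.7% and 17.6%, both lay above the controls at 7.56% and 9.89%. The shares of all the other sub-clusters, 1, 2, 4, 5 and 7 to 10, overlapped between the groups. With so few libraries, a share without overlap in either direction often arises by chance, so sub-clusters 3 and 6 do not stand out. No test was made of these shares, and their part in the differences between genotypes was not tested.

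**Figure D3:**
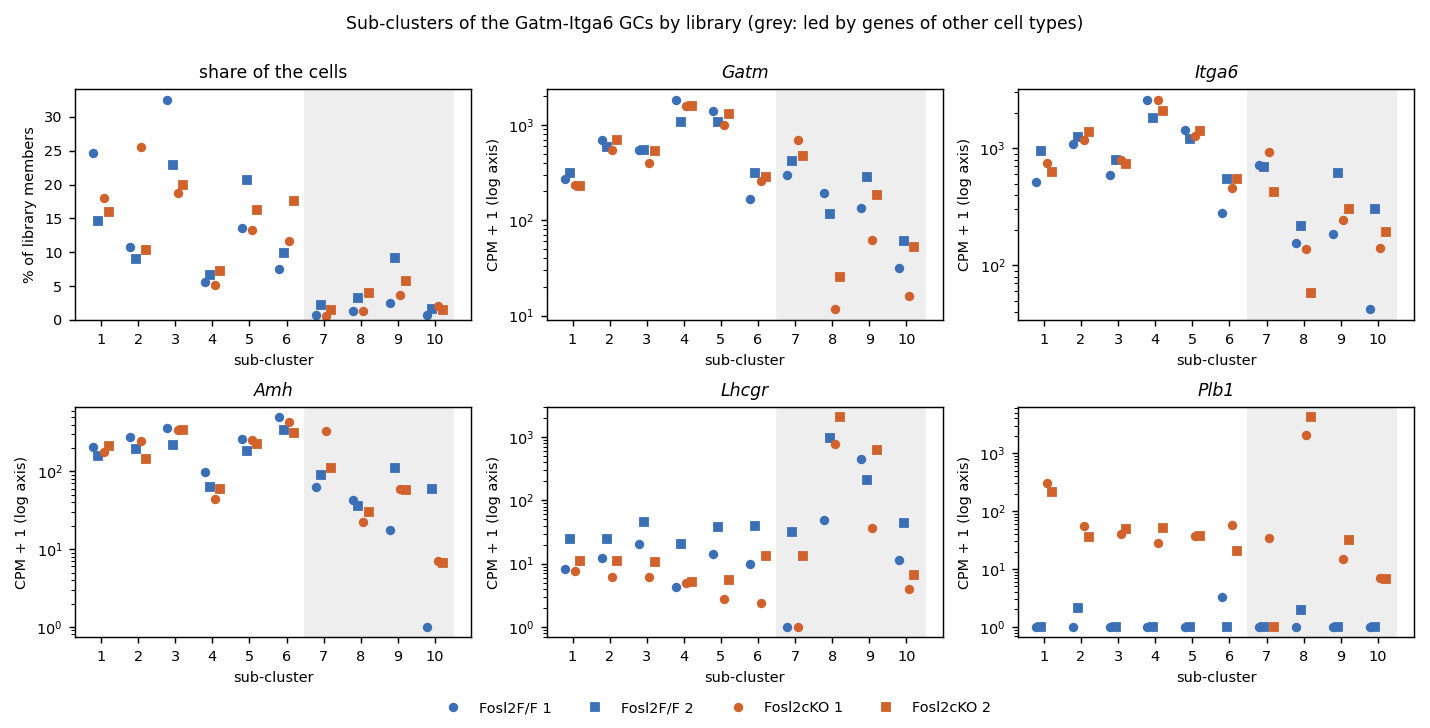
Share of each library's members in sub-clusters 1 to 10 (in %, first panel) and CPM + 1 on a log axis of Gatm, Itga6, Amh, Lhcgr and Plb1 in each sub-cluster, 1 point per library. Sub-clusters 7 to 10 (shaded) are led by genes of other cell types, and sub-cluster 8 holds the highest Plb1 in both cKO-labelled libraries. Sub-cluster 4 has the highest Itga6 and the lowest Amh of sub-clusters 1 to 6.

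The share of these cells was then compared between genotypes, over members that also carried at least 3 of 8 general GC markers. They made up 7.16% and 16.2% of GC-like cells in the control libraries and 13.4% and 11.5% in the cKO-labelled ones. Both cKO-labelled libraries lay between the control libraries (log2 ratio of means 0.09, exact two-sided permutation p = 1.0, where 4 libraries allow no p below 0.33). Of all cells, members were 4.52% and 6.49% against 5.35% and 4.61%, with a log2 ratio of -0.14. The direction turned with single libraries: the log2 ratio over GC-like cells was -0.38 without the 1st control library, 0.80 without the 2nd and -0.02 without the 1st cKO-labelled library. At 2000 UMIs a cell the shares of GC-like cells were 2.12% and 7.89% against 5.68% and 4.31%, over the members and GC-like cells that the same rules found in the thinned counts.

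**Figure D4:**
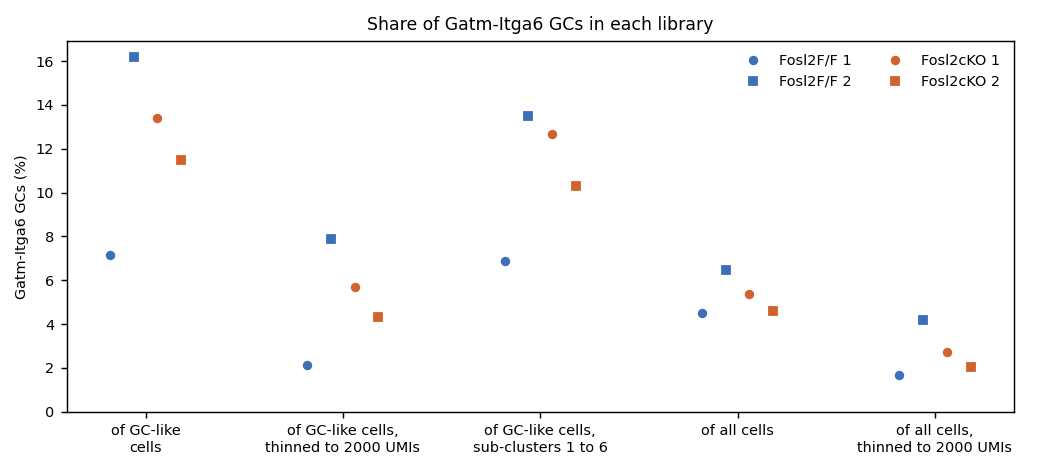
Gatm-Itga6 GCs as a percentage of GC-like cells or of all cells, 1 point per library, at full depth and after thinning each cell to 2000 UMIs, and for sub-clusters 1 to 6 as a percentage of GC-like cells. The 2 cKO-labelled libraries lie between the 2 control libraries in the 5 settings drawn. In sub-clusters 1 to 6 over all cells, which is not drawn, the controls had 4.28% and 5.44% and the cKO-labelled libraries 4.95% and 4.02%, so the last lay below both controls.

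Summed over all members, 1 gene of 13370 passed the test between genotypes (edgeR's quasi-likelihood test, with the adjusted p under 0.1 and a log2 change beyond 0.25), which is 0.00748% of those tested, and 507 had an unadjusted p under 0.05. That gene was Plb1, a phospholipase B. It had 0.168 and 0.195 CPM in the control libraries, from 1 and 2 UMIs, and 162 and 507 CPM in the cKO-labelled libraries (edgeR adjusted p = 0.0173). The groups did not overlap. Over summed UMIs the ratio was 1802-fold, with an exact 95% interval of 616 to 8742 that covers counting error only. Plb1 (chromosome 5 of GRCm38, start 32232708, end 32366520) is on the same strand as Fosl2 and 74866 bases beyond its end. A Plb1 UMI was found in 0.252% and 0.127% of members against 39.1% and 34.1%, and at 2000 UMIs a cell in 0.254% and 0.0683% against 13.8% and 11.9%, above the macrophage-like share of 2.03% and 4.55% in the cKO-labelled libraries.

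Plb1 was unequal among the members. In the cKO-labelled libraries it had 2068 and 4214 CPM in sub-cluster 8 (5 and 14 cells), 301 and 217 CPM in sub-cluster 1, and 19.8 to 57.6 CPM in sub-clusters 2 to 6. Without sub-clusters 7 to 10 the members had 117 and 89.5 CPM, against 2 UMIs in the control libraries (log2 change 9.12, edgeR adjusted p = 4.6e-08). These cells held 1107 of the 4304 Plb1 UMIs that members had in the cKO-labelled libraries. Over summed UMIs their ratio was 664-fold, with an exact 95% interval of 183 to 5487 for counting error only. Mural-like cells of the same libraries had 2174 and 728 CPM, atretic-like cells 467 and 653 CPM and macrophage-like cells 10.8 and 18.6 CPM. The difference between genotypes was smaller in Gatm-Itga6 GCs than in mural-like cells by 3.25 on the log2 scale over all members and by 4.68 over sub-clusters 1 to 6, neither past the threshold (adjusted p = 0.999 and 0.847 in limma). These sizes depend on the offset, since mural-like cells of the control libraries held 1 and 0 Plb1 UMIs. From group means of CPM + 1, the log2 change was 8.15 over all members and 10.46 in mural-like cells. Plb1 no longer passed when either control library was left out, with adjusted p = 0.843 without the 1st and 0.291 without the 2nd in edgeR, while its log2 change stayed at 10.62 and 10.68 against 10.64 with all 4 libraries. Those fits hold 1 control library, which is assumed to vary like the other group.

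The 10 genes with the lowest p over all members, at a mean of at least 20 CPM and without overlap, were Plb1, Rab5if, Ywhah, Dbp, Eif3f, Dnttip1, Scand1, Irx3, Glrx5 and Sema3d, and all were higher in the cKO-labelled libraries. Eif3f, a subunit of a translation initiation factor, had 179 and 176 CPM against 418 and 542 CPM. Ywhah, a 14-3-3 protein, had 42.9 and 41.9 CPM against 104 and 126 CPM. Both had the same order in macrophage-like cells, Eif3f with 121 and 126 against 322 and 409 CPM and Ywhah with 96.8 and 76.6 against 230 and 243 CPM. Sema3d, a secreted guidance factor, had 23.2 and 15.7 CPM against 50.3 and 82.4 CPM, and belonged to the leading genes of sub-cluster 8. Over sub-clusters 1 to 6 its log2 change was 0.72 ± 0.51 (SE) with adjusted p = 1.0 in edgeR, against 1.70 over all members, and its libraries overlapped in the other 4 cell sets.

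Over sub-clusters 1 to 6 alone, a set taken after the values had been seen, 40 of 12612 genes passed, which is 0.317% of those tested, with 35 higher (0.278%) and 5 lower (0.0396%) in the cKO-labelled libraries. Of the 35, 27 were also higher in both of those libraries in macrophage-like cells, 33 in mural-like and 34 in atretic-like cells, where 13.9%, 17.6% and 19.5% of all these genes were. How much of these differences was shared by all cells of a library was not tested. The count moved with single libraries, to 1 without the 1st control library, 11 without the 2nd, 123 without the 1st cKO-labelled library and 93 without the 2nd.

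Of the 35 higher genes, 8 did not have that order in macrophage-like cells: Dbp, Lysmd2, Klf2, Cited4, Gal3st3, Map1lc3a, Igfbp2 and Irx3. Lysmd2, Cited4, Gal3st3, Igfbp2 and Irx3 had at most 5.30 CPM there, too few counts to tell an order (Irx3 had 0, 4, 3 and 3 UMIs). Control counts were as few for some of the 27 genes that kept the order there. Zfp771 had 0 and 2.84 CPM and Cdkn1c had 0 and 2.27 CPM in macrophage-like cells of the control libraries. In atretic-like cells all 8 kept the order, and in mural-like cells all but Klf2. Igfbp2, which binds insulin-like growth factors, had 23.9 and 22.0 CPM against 45.9 and 168 CPM, and mural-like cells had 17.1 and 17.9 against 94.8 and 62.7 CPM. Irx3, a homeobox transcription factor, had 13.6 and 20.1 CPM against 35.7 and 52.4 CPM. Dbp, a clock-controlled transcription factor, had 8.52 and 16.0 CPM against 35.2 and 43.7 CPM. Wnt6, a secreted signaling ligand outside these 8, had 33.2 and 39.2 CPM against 121 and 70.1 CPM (log2 change 1.32 ± 0.26 (SE), adjusted p = 0.0713 in edgeR). Its levels in mural-like cells overlapped between 1.44 and 5.87 CPM, and atretic-like cells had 5.80 and 10.7 against 75.6 and 30.8 CPM. Macrophage-like cells had 0 and 2.27 against 4.40 and 3.53 CPM, again too few counts to tell an order. Apart from Dbp and Irx3, the genes of this paragraph were named after their values had been seen. Of the 5 lower genes, Hbb-bs and Hba-a1 encode hemoglobin and were led by the 1st control library at 217 and 81.8 CPM, Sfrp4 and Cyp17a1 were among the genes that led sub-clusters 8 and 9, and Inhba was limited by the rule. Of these 5, 4 were also lower in both cKO-labelled libraries in macrophage-like cells, 2 in mural-like and 2 in atretic-like cells. The shares of all genes tested that were lower there were 17.0%, 14.1% and 11.4%.

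**Figure D5:**
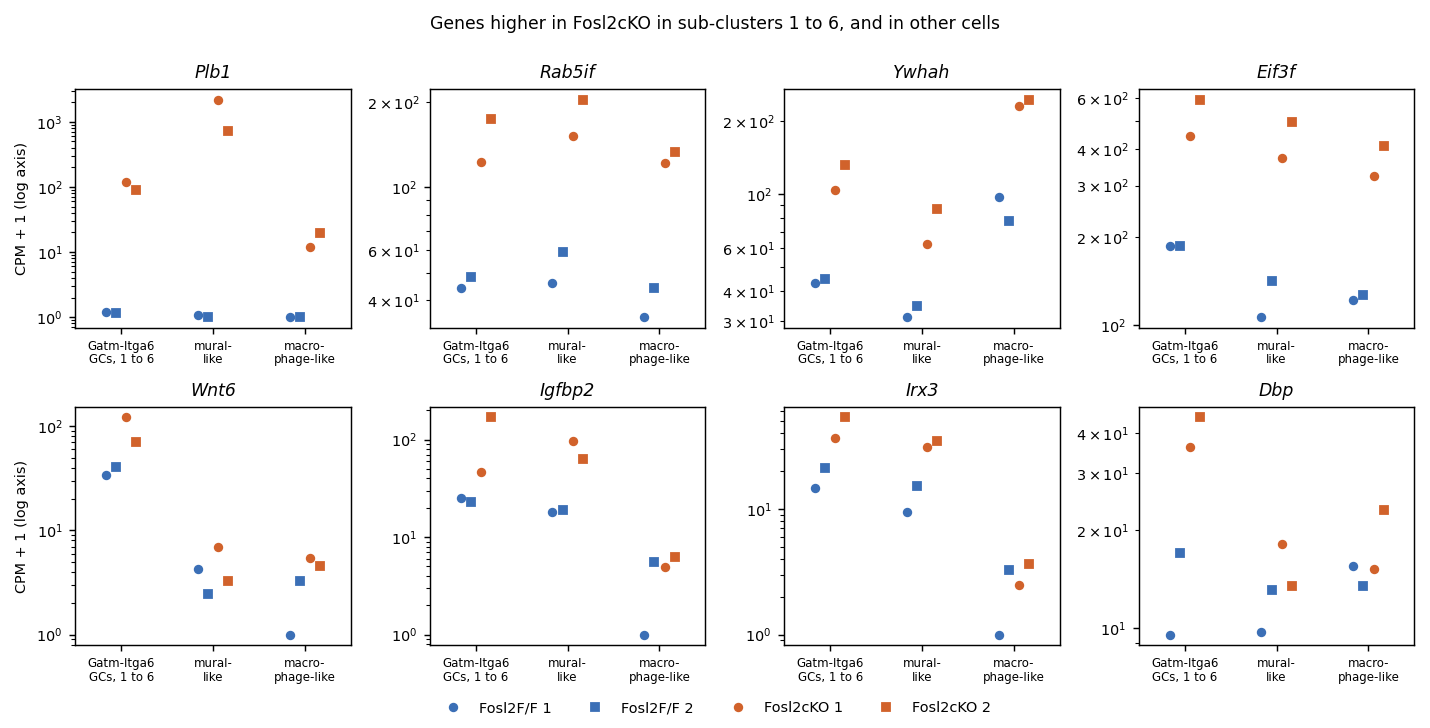
CPM + 1 on a log axis for 8 genes that were higher in the cKO-labelled libraries over sub-clusters 1 to 6, shown there and in mural-like and macrophage-like cells, 1 point per library. Rab5if, Ywhah and Eif3f keep the same order in macrophage-like cells, while Wnt6 is above mural-like and macrophage-like cells in Gatm-Itga6 GCs of all 4 libraries.

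Among the lists, no member passed the test over all members. Counted instead by whether both cKO-labelled libraries lay beyond both control libraries, 15.2% of all genes were higher and 15% lower after TMM scaling. For the same genes the shares were 14.5% and 17.7% in mural-like, 14.9% and 15.4% in atretic-like and 14.4% and 16.2% in macrophage-like cells. By library totals alone the split moved from 50.4% to 65.5% higher among such genes. In mitochondrial respiration 20 of 30 genes were lower and 0 were higher (median log2 fold change -0.25 against -0.01 over all genes), for example Uqcrq with 116 and 136 against 94.3 and 92.1 CPM. The same list had 17 of 30 lower in mural-like, 12 in atretic-like and 15 in macrophage-like cells. GC transcription factors had 6 of 18 higher and 1 lower. Sox4 had 246 and 275 against 365 and 470 CPM and Emx2 had 71.5 and 64.6 against 93.5 and 127 CPM, neither past the threshold (adjusted p = 1.0 for both in edgeR). Inflammation genes had 7 of 19 higher and 2 lower, with Socs3 at 109 and 146 against 203 and 186 CPM and Irf1 at 53.5 and 84.6 against 124 and 118 CPM, adjusted p = 1.0 and 0.984 in edgeR. The same list had 5 of 19 higher and 0 lower in macrophage-like cells, 3 higher and 3 lower in atretic-like cells, and 0 higher and 7 lower in mural-like cells. Immediate early and stress genes had 5 of 17 higher and 0 lower in Gatm-Itga6 GCs, 4 higher and 1 lower in macrophage-like, 1 higher and 0 lower in mural-like, and 0 higher and 1 lower in atretic-like cells.

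Of the genes that define cumulus cells, Amh, Kitl and Slc38a3 had log2 fold changes of -0.10 (standard error 0.28), 0.09 (0.30) and -0.59 (0.78), with overlapping libraries and adjusted p = 1.0 for each in edgeR. The 15 receptors for gonadotropins and other hormones held none beyond the other group, and the 23 oocyte factor receptors and Smads held 4 higher, or 17.4% against 15.2% of all genes, and 0 lower. Between Gatm-Itga6 GCs and mural-like cells, 0 of 13964 genes differed in the size of the change (limma on within-library differences, 565 at an unadjusted p under 0.05). In simulated data this test found 0% of 200 genes changed 2-fold (among 13964) and 98.5% of 200 changed 20-fold (among 13920). A 2-fold difference between the cell sets was therefore not detectable with these libraries, and sizes in between were not simulated.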

How the data were processed

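The UMI counts per gene and cell barcode were deposited by the authors, 1 filtered matrix per library. The matrix headers name Cell Ranger 7.1.0 and the submitters' processing notes Seurat 4.1.0, while the study's methods name other versions. The study's methods name CellBender for removing ambient RNA. Whether the deposited matrices are the corrected ones is not given in the sources used here. No column was left unused (0). Cells needed at least 500 genes, over 1000 UMIs and under 10% mitochondrial UMIs. Scrublet scores in scanpy 1.11.5 ranked likely doublets, which stayed in and were left out in an alternative. The members and gene lists were chosen with earlier results of these data known. The sets of mural-like, growing-follicle, atretic-like and macrophage-like cells came from short marker rules. Mural-like cells needed Lhcgr and Inhba at or over 10 UMIs per 10000, and growing-follicle and atretic-like cells needed Inhba under 10. All but the macrophage-like set were also limited to fewer than 4 of the 8 markers.

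UMIs were summed per library and cell set. CPM are UMIs per 1000000 of that sum, without TMM scaling unless stated. edgeR 4.0.16 (R 4.3.3; filterByExpr, TMM, quasi-likelihood test, Benjamini-Hochberg over all genes tested) compared 2 libraries with 2, at an adjusted p under 0.1 and an absolute log2 fold change over 0.25. Standard errors were not fitted by edgeR: they are the absolute log2 change over the square root of the F value of the test. limma 3.58.1 tested the difference between cell sets, at an adjusted p under 0.1. DESeq2 1.42.0, other scalings, no gene filter, a replicate block, thinning to 2000 UMIs a cell, a rule of 5 markers and leaving out each library were alternatives. Leaving out sub-clusters 7 to 10 was an alternative chosen after seeing the data. Levels used log2(CPM + 1). Sub-clusters came from 2000 variable genes and 20 components. Genes were named by rule: those of the cell rule and Fosl2, those that passed, the 10 with the lowest p at a mean of at least 20 CPM, the 20 leading and 10 lowest genes against other GC sets at a mean of at least 50 CPM in the higher set, and from each list those that define cumulus cells or had the most UMIs. Other list members named were picked with their values in view. In simulated data for Gatm-Itga6 GCs, edgeR found 42% of 200 genes changed 2-fold among 13128, with 18 false calls. Those counts were drawn from the fitted spread of each gene. In the real data larger changes did not pass in edgeR, such as Scand1 (log2 change 2.37, adjusted p = 0.366) and Rab5if (1.57, adjusted p = 0.366). Whether the simulated share holds for the real libraries was not tested. The libraries held 120327227 to 148836173 UMIs. Gene positions are from GRCm38. A few genes are not reported here.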

Additional observations from a re-analysis of the deposited data

How the results depend on the processing

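The number of genes that passed between genotypes, 1 over all members, was 263 with no gene filter, 58 with DESeq2, 14 after thinning, 2 with a rule of 5 markers and 40 in sub-clusters 1 to 6, and ranged from 0 to 145 when single libraries were left out. Fewer genes were tested after thinning (6010). A block for the replicate number gave 64 genes. Whether the numbers pair the libraries is not given in the sources used here. Deviations of same-numbered libraries correlated at -0.07, which with 2 libraries a group cannot decide it. In sub-clusters 1 to 6 the block gave 42 genes, 37 of them shared. Fosl2 turned to a log2 fold change of 0.0451 with library totals, 0.0173 with the replicate block and 0.32 without the 2nd Fosl2F/F library (range over left-out libraries -0.29 to 0.32), never past the threshold. The log2 ratio of shares turned to -0.14 over all cells and -0.0033 after thinning, and ranged from -0.38 to 0.80 over left-out libraries. Genes that differed between Gatm-Itga6 GCs and mural-like cells in the size of the change numbered 0 to 19 over left-out libraries. Genes over 2-fold lower than in mural-like cells numbered 341 in sub-clusters 1 to 6 against 226. The causes were not tested. Over the 10 named genes with the lowest p, 158 alternative values held 101 on the same side of the threshold, 55 newly past it, 2 no longer past it (both Plb1) and 0 with the direction turned. With 2 libraries a group, 2-fold changes were often missed in simulated data.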
